A study of Mus musculus with 6 samples.

Results

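Among the 30142 genes compared between cancer stem cells of Sfrp1_KO and WT mouse skin carcinomas, 49 belonged to the major histocompatibility complex (MHC) and the machinery of antigen presentation. They were the 37 genes whose platform symbol starts with H2-, the mouse MHC prefix, and 12 of 15 partner genes chosen by name: B2m, Tap1, Tap2, Tapbp, Psmb8, Psmb9, Psmb10, Psme1, Erap1, Ciita, Cd1d1 and Irf1. The other 3, Psme2, Nlrc5 and Cd74, stand only on array features that carry several gene symbols, and were not analysed here. For Irf1, the 1 member with more than 1 feature, the brightest was used. Of the H2 genes, grouped by symbol, 24 are class I or class I-like heavy chain genes, the pseudogene H2-M6-ps among them. Another 12 are class II chain genes, including H2-Ea, whose platform symbol, H2-Ea-ps, has the same -ps ending. The last, H2-Ke6, encodes a steroid dehydrogenase and is no MHC molecule in spite of its symbol.

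The Sfrp1_KO samples came from Sfrp1-/- mice, which lack a secreted Wnt antagonist, and the WT samples from wild-type mice, with 3 samples each. Skin carcinomas had been raised in both genotypes with the mutagen DMBA on 3 days (PD 23, 25 and 27 in the labels) and then with the tumour promoter TPA, applied 2 times a week for 30 to 40 weeks. From the carcinomas, cells that carried Epcam, α6-integrin and CD34 but no lineage markers were sorted, and each sample went on 1 Affymetrix MTA 1.0 array. Strain, sex, the deleted part of Sfrp1, any pooling of animals and whether replicates are separate mice are not stated in the labels. The p-values therefore cover only how far these samples scatter, and some of that scatter may be technical.

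MHC class I molecules sit on nearly all nucleated cells and show peptides from the cell's own proteins to CD8 T cells. Each is a heavy chain bound to the light chain β2-microglobulin, encoded by B2m. Peptides are cut by the proteasome, in which Psmb8, Psmb9 and Psmb10 replace the constitutive catalytic subunits under interferon, are pumped into the endoplasmic reticulum by Tap1 and Tap2, trimmed by Erap1 and loaded with the help of tapasin (Tapbp). Class II molecules show peptides from endosomes to CD4 T cells and are made mainly by dendritic cells, macrophages and B cells, although keratinocytes can make them under interferon gamma. Ciita is the master activator of class II genes and Irf1 an interferon-induced transcription factor.

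Values are deposited log2 probe set signals, and a difference is Sfrp1_KO minus WT in these units, with the standard error (SE) of the limma fit over all 30142 genes. Because the deposited scale reaches 19.93, above the 16 bits of a scanner, no difference is turned into a fold. The highest of 23 antigenomic probe sets served as the background level of an array and lay between 4.82 and 5.10. With 3 arrays a genotype, precision is limited by their number. A level of one gene cannot be set against that of another on this platform. Near-identical class I genes can share probe signal, so the values of single H2-K, H2-D, H2-Q and H2-T genes are uncertain to that extent. All 49 members were tested with no filter on dim genes. In 28 of them none of the 6 arrays rose above background, and 18 stood above it in every array of at least 1 genotype.

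The promoter windows of B2m, of the heavy chain genes H2-K1, H2-D1 and H2-Q4 and of the class II gene H2-Aa are shown because the first 4 include the members with some of the largest differences and the last belongs to the class with none of them. Each is the 250 bases before a RefSeq transcript start (build GRCm38.p6), 5′ to 3′ on the gene's strand: chr2:122147437-122147686 (plus strand), chr17:34000348-34000597 (minus), chr17:35262844-35263093 (plus), chr17:35379367-35379616 (plus) and chr17:34287824-34288073 (minus). Capitals mark matches on either strand to GAANNGAAA or to the longer form GAAA, any 2 bases, GAAA, which are spacings of the element bound by interferon regulatory factors, to GGGGA followed directly by TTCCC, the NF-kB element of the class I enhancer A, or to CTGATTGG, a core of the Y box of MHC promoters.
B2m: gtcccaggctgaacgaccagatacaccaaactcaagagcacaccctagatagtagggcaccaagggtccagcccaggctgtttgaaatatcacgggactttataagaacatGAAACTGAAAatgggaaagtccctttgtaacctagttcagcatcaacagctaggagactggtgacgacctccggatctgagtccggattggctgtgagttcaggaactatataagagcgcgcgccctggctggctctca
H2-K1: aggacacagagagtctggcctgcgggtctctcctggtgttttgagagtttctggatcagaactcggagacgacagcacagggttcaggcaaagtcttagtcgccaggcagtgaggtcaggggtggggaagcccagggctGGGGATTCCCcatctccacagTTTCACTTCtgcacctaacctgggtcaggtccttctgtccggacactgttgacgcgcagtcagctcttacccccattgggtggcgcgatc
H2-D1: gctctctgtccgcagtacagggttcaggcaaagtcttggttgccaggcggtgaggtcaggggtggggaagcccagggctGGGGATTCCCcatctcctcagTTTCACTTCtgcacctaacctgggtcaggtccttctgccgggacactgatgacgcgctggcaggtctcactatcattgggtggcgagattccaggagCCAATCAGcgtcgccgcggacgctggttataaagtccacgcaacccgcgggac
H2-Q4: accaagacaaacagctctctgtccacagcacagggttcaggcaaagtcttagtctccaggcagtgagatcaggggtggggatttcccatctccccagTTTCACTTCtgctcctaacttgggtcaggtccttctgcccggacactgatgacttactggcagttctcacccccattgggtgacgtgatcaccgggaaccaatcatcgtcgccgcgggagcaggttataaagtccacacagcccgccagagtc
H2-Aa: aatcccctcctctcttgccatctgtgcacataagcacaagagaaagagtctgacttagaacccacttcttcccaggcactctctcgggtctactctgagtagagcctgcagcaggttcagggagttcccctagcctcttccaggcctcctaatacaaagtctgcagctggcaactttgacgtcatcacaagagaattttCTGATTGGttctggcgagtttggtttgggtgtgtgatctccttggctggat

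Windows were found for 35 of the 49 members, 17 class I heavy chains and 8 class II chains among them. GAANNGAAA was present in 6 of the 17 class I windows (H2-K1, H2-D1, H2-Q4, H2-Q10, H2-M3 and H2-M2) and in 0 of the 8 class II windows, against 6.34% of 27025 windows of all genes. The longer form of the interferon element, whose gap between the outer triplets is wider, was found in B2m alone among the 35 members and in 3.04% of all windows; it was added to the search after the B2m window had been read. The NF-kB element stood in H2-K1 and H2-D1, and in 0.0814% of all windows. CTGATTGG stood in 9 of the 17 class I and 4 of the 8 class II windows, against 4.07% of all. Paralogous promoters share ancestry, so these windows are not independent of each other. A match is a description of letters, not a shown binding site, and a window without a match says nothing of the factor.

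B2m rose in Sfrp1_KO and was the only member that passed the test. Its signal was 17.82, 17.54 and 16.37 in Sfrp1_KO replicates 1, 2 and 3, against 13.49, 13.96 and 14.44 in WT replicates 1, 2 and 3. All Sfrp1_KO arrays thus lay above all WT arrays, the lowest of the one at 16.37 and the highest of the other at 14.44. The difference was 3.28 (SE 0.42, 95% CI 2.27 to 4.28; limma adjusted p = 0.0136). By exact permutation of the arrays, two-sided, p was 0.1, below which a design of 3 and 3 arrays cannot go. One of 49 members called higher compares with 1.83% of all genes, and none of 49 called lower compares with 1.45%. The call ended without Sfrp1_KO replicate 1 (2.99, adjusted p = 0.0502) and without Sfrp1_KO replicate 2 (3.13, adjusted p = 0.0751), and held without any 1 of the other 4 arrays. In bulk samples of this kind, a different share of cells of a type and a different amount of RNA per cell cannot be told apart.

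The classical heavy chains H2-K1 and H2-D1, which present peptides to CD8 T cells, were higher on average in Sfrp1_KO without passing the test. H2-K1 had 9.54, 9.66 and 8.63 in Sfrp1_KO, against 7.54, 7.83 and 8.40 in WT. H2-D1 had 9.53, 9.48 and 8.58 in Sfrp1_KO, against 7.44, 7.87 and 8.58 in WT. The genotypes separated for H2-K1 and just touched for H2-D1, where the lowest Sfrp1_KO array and the highest WT array were level to 2 decimals. The differences were 1.35 (SE 0.33, 95% CI 0.56 to 2.15, limma adjusted p = 0.103) for H2-K1 and 1.23 (SE 0.36, 95% CI 0.36 to 2.10, limma adjusted p = 0.169) for H2-D1. H2-K1 passed without Sfrp1_KO replicate 3 (1.67, limma adjusted p = 0.0467). The exact permutation p was 0.1 for H2-K1 and 0.2 for H2-D1.

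Among the class I-like heavy chains, which differ from the classical ones in having few alleles and narrower expression, H2-T10 and H2-Q4 came closest to the threshold. H2-T10, a ligand of some γδ T cells, had 7.76, 7.65 and 6.94 in Sfrp1_KO, against 6.44, 6.58 and 6.19 in WT (difference 1.05, SE 0.23, limma adjusted p = 0.0771). H2-Q4 had 6.98, 7.21 and 6.66 in Sfrp1_KO, against 5.88, 6.16 and 6.34 in WT (difference 0.82, SE 0.18, limma adjusted p = 0.0725). H2-K2, a heavy chain gene next to H2-K1, had 5.89, 6.16 and 5.38 in Sfrp1_KO, against 5.18, 5.13 and 5.33 in WT (difference 0.60, SE 0.20, limma adjusted p = 0.227). In all of these genes the lowest Sfrp1_KO array was replicate 3, and it still lay above the highest WT array. Without Sfrp1_KO replicate 3, H2-T10 (1.30, limma adjusted p = 0.0167) and H2-K2 (0.81, limma adjusted p = 0.0463) passed. H2-Q10 had 5.38, 5.23 and 5.35 in Sfrp1_KO, against 4.93, 5.07 and 5.26 in WT, so that the genotypes overlapped. H2-M2 had 5.39, 5.26 and 5.52 in Sfrp1_KO, against 5.32, 5.36 and 5.33 in WT, a difference of 0.06 (SE 0.09).

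The remaining 17 class I-like genes were dim (1 of them, H2-T24, above background in 1 WT array), with values of 3.72 to 5.03 in Sfrp1_KO and 3.81 to 4.87 in WT and differences of -0.10 to 0.35. Of these, H2-Q1, H2-Q2 and H2-M3 had every Sfrp1_KO array above every WT array while staying under the background level, and H2-M6-ps is a pseudogene. Over all 24 class I heavy chains the median difference was 0.08, against -0.01 over all genes, 18 differences were positive and 6 negative, and none passed the limma test. Every Sfrp1_KO array lay above every WT array in 7 of the 24, where 9.1% of all genes did so, and below in none, where 10.8% of all genes did so. Over all 49 members, 11 separated upwards and 2 downwards, where 19.9% of all genes separated in either direction. At an unadjusted limma p under 0.05, 7 of the 24 were higher and 0 lower. The share of all genes at that threshold was not counted, so no excess can be read from these counts.

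**Figure D1:**
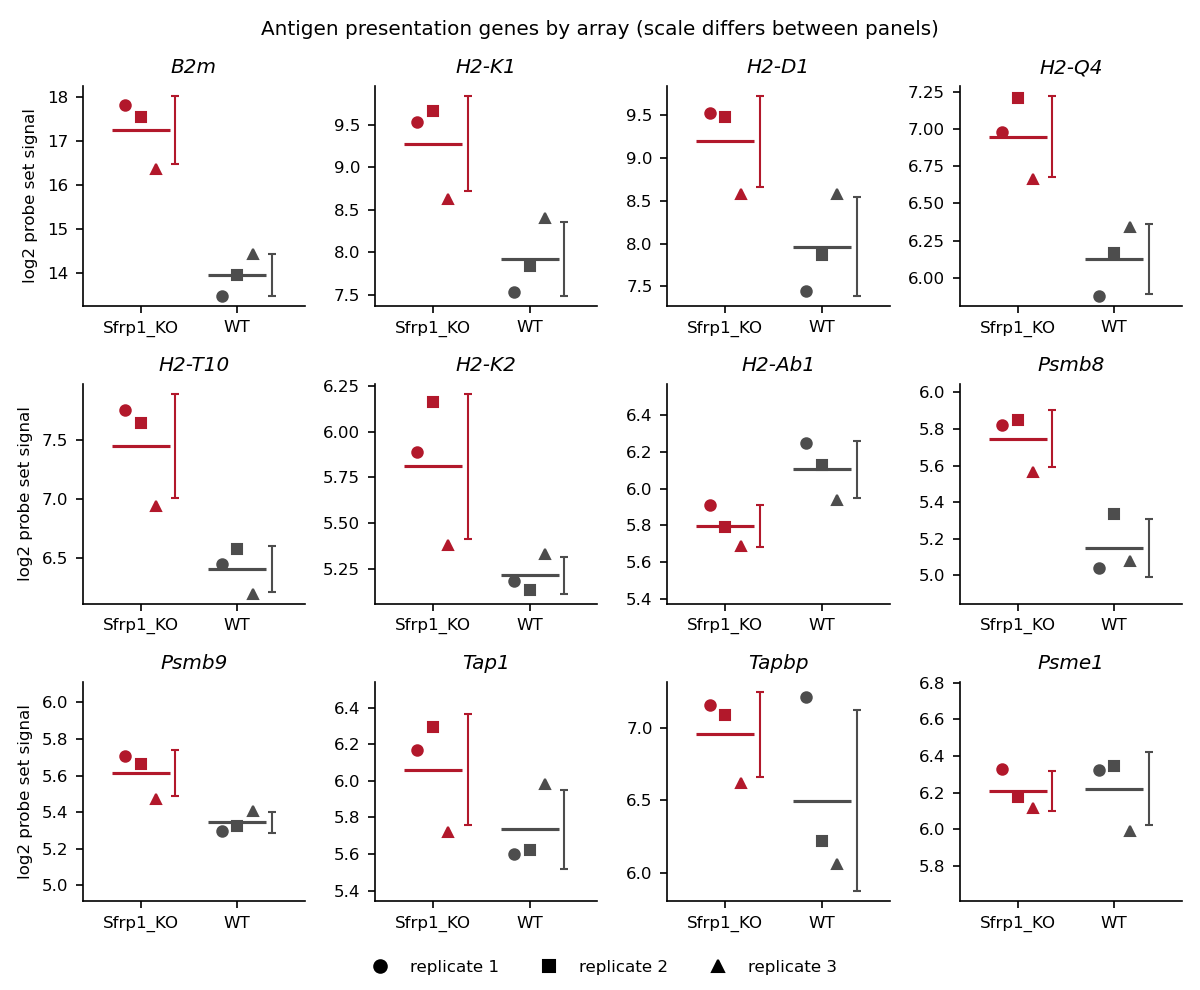
Log2 probe set signal of 12 antigen presentation genes in each array, with the 3 Sfrp1_KO arrays (red) left of the 3 WT arrays (grey); symbols give the replicate number, horizontal lines the mean and bars the SD (n = 3), and the scale differs between panels. B2m lies at 16.37 to 17.82 in Sfrp1_KO and at 13.49 to 14.44 in WT, while H2-Ab1 lies lower in every Sfrp1_KO array and the genotypes overlap in Tap1, Tapbp and Psme1.

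Among the class II chains none passed the test and most were under background. H2-Ab1, the β chain of the I-A molecule, was the only class II gene above background in all arrays, with 5.91, 5.79 and 5.69 in Sfrp1_KO, against 6.25, 6.13 and 5.94 in WT. The 3 Sfrp1_KO arrays were all under the 3 WT arrays, the closest being Sfrp1_KO replicate 1 and WT replicate 3. The difference was -0.31 (SE 0.11, 95% CI -0.58 to -0.04) and did not pass (limma adjusted p = 0.262; exact permutation p = 0.1).

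Its partner H2-Aa, the α chain of I-A, had 4.97, 4.87 and 4.82 in Sfrp1_KO, against 4.85, 5.32 and 4.78 in WT, and only WT replicate 2 stood above background. The I-E chains H2-Ea, H2-Eb1 and H2-Eb2, the peptide-exchange chaperones H2-DMa, H2-DMb1 and H2-DMb2, their inhibitors H2-Oa and H2-Ob, and H2-Pa and H2-Pb were under background in all 6 arrays, with differences of -0.13 to 0.19. Over the 12 class II chains the median difference was -0.04, 5 differences were positive and 7 negative, and none passed the limma test. At an unadjusted limma p under 0.05, 0 were higher and 1 lower, again with no share of all genes counted at that threshold. H2-Ab1 and H2-DMb1 were lower in every Sfrp1_KO array than in every WT array and none of the 12 was higher in every one, where 10.8% of all genes were lower and 9.1% higher in this way. The highest upper bound of the 95% intervals among the 12 was 0.50 log2 units, for H2-Pb, but in a gene under background in both genotypes a difference in RNA may not be detectable. The difference between the 2 classes was not tested, since genes are not replicates.

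**Figure D2:**
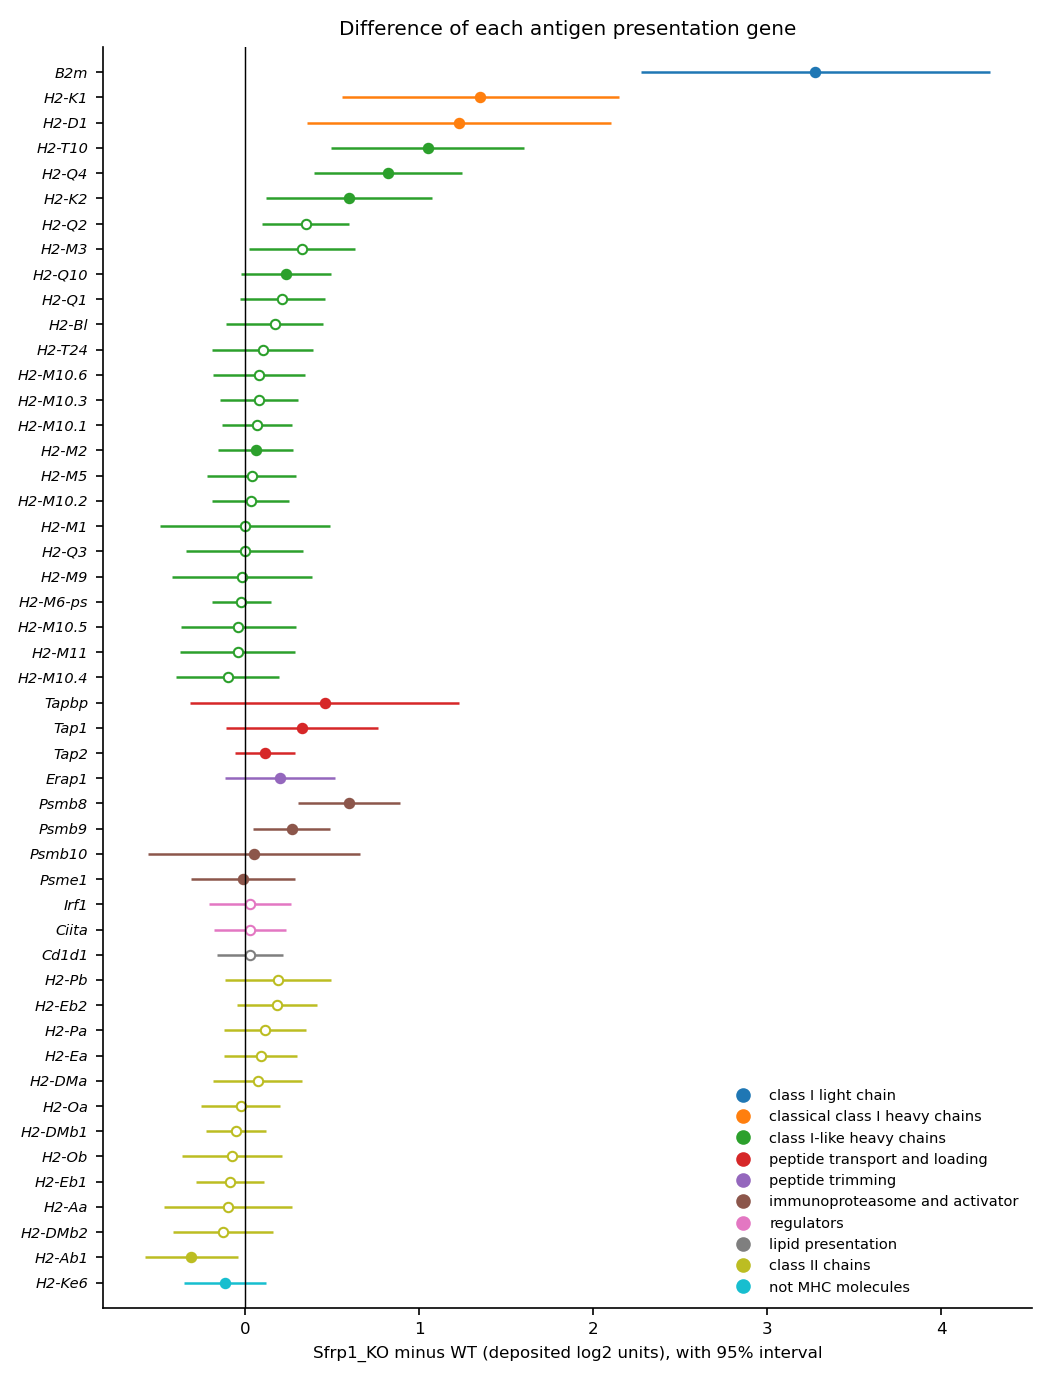
Difference (Sfrp1_KO minus WT, deposited log2 units) of all 49 members with its 95% interval from limma, coloured by role; filled points are members above background in every array of at least 1 genotype, open points the others. B2m stands at 3.28, the classical heavy chains at 1.35 and 1.23, and the class II chains between -0.31 and 0.19.

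None of the genes that make and load class I peptides passed the test. Psmb8, the interferon-induced catalytic subunit that replaces Psmb5, had 5.82, 5.85 and 5.57 in Sfrp1_KO, against 5.04, 5.33 and 5.08 in WT. All Sfrp1_KO arrays lay above all WT arrays, and the difference of 0.60 (SE 0.12, 95% CI 0.30 to 0.89) did not pass (limma adjusted p = 0.0613). Psmb9, which shares the MHC region with Tap1 and Psmb8, had 5.71, 5.66 and 5.47 in Sfrp1_KO, against 5.30, 5.33 and 5.41 in WT, and also separated (difference 0.27, SE 0.09, limma adjusted p = 0.238). The third inducible subunit, Psmb10, had 6.75, 6.62 and 6.30 in Sfrp1_KO, against 7.03, 6.08 and 6.41 in WT, with the genotypes intermixed (difference 0.05, SE 0.25). Psme1, a subunit of the proteasome activator PA28, had 6.33, 6.18 and 6.12 in Sfrp1_KO, against 6.32, 6.35 and 5.99 in WT (difference -0.01, SE 0.12).

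The transporter gene Tap1 had 6.17, 6.30 and 5.72 in Sfrp1_KO, against 5.60, 5.62 and 5.98 in WT, and the genotypes overlapped (difference 0.33, SE 0.18, limma adjusted p = 0.526). Its partner Tap2 had 5.16, 5.15 and 5.09 in Sfrp1_KO, against 5.03, 5.05 and 4.996 in WT, close to background throughout (difference 0.11, SE 0.07). Tapbp, whose product bridges the transporter and the empty class I molecule, had 7.15, 7.09 and 6.62 in Sfrp1_KO, against 7.21, 6.22 and 6.06 in WT. WT replicate 1 was the highest array of all for Tapbp and the interval of its difference was wide (0.46, 95% CI -0.32 to 1.23). The peptide-trimming aminopeptidase gene Erap1 had 5.68, 5.92 and 5.44 in Sfrp1_KO, against 5.51, 5.50 and 5.43 in WT (difference 0.20, SE 0.13). Irf1 ranged from 4.85 to 5.08 in Sfrp1_KO and from 4.87 to 5.07 in WT, at the background level, with a difference of 0.03 (95% CI -0.21 to 0.27). Ciita ranged from 3.95 to 4.12 in Sfrp1_KO and from 3.92 to 4.04 in WT, and Cd1d1, a presenter of lipids to NKT cells, from 4.09 to 4.16 in Sfrp1_KO and from 4.01 to 4.14 in WT, all under background. H2-Ke6 had 6.01, 5.82 and 5.88 in Sfrp1_KO, against 6.05, 6.12 and 5.89 in WT (difference -0.12, SE 0.10).

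The order of the arrays was alike in part. Sfrp1_KO replicate 3 was the lowest of the Sfrp1_KO arrays for B2m, H2-K1, H2-D1, H2-Q4, H2-T10, H2-K2, Psmb8, Psmb9, Tap1, Tap2, Tapbp and Erap1. It was also the lowest for H2-Ab1, Psmb10 and Psme1, whose genotype differences were -0.31, 0.05 and -0.01. Replicate 2 was the lowest for H2-Q10, H2-M2 and H2-Ke6. Of the 18 members above background in every array of at least 1 genotype, 15 were thus lowest in replicate 3. Replicate 3 was the lowest in 28 of the 49 members, where 31.1% of all genes had their lowest Sfrp1_KO value there. Of the 30142 genes 16432 were under background in all 6 arrays, and no share was counted over brighter genes. This order was not particular to the members. List means were also lowest in replicate 3 for the constitutive proteasome genes (8.24, 8.34 and 7.84 in Sfrp1_KO replicates 1, 2 and 3). The same held for the basal keratinocyte and sort markers (6.67, 6.64 and 6.41). T and NK cell markers, all under background, were instead highest there (4.22, 4.17 and 4.30). WT replicate 3 was the highest WT array for B2m, H2-K1, H2-D1, H2-Q4, H2-Q10, H2-K2, Psmb9 and Tap1, but the lowest for H2-T10, H2-Ab1, H2-Ke6, Tap2, Tapbp, Psme1 and Erap1.

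Several macrophage markers were also lowest in replicate 3 among the Sfrp1_KO arrays, as were the proteasome and keratinocyte list means given above. The macrophage lysozyme gene Lyz2 had 7.94, 6.84 and 5.96 in Sfrp1_KO, against 5.11, 4.69 and 5.02 in WT, and the complement gene C1qb had 5.89, 5.79 and 4.57 in Sfrp1_KO, against 3.996, 4.18 and 4.16 in WT. Of 15 macrophage and monocyte markers, 10 had every Sfrp1_KO array above every WT array and 10 had their lowest Sfrp1_KO value in replicate 3, against 9.1% and 31.1% of all genes; none was called higher (smallest limma adjusted p among those higher in Sfrp1_KO 0.0941, for Lyz2), and Ly6c2 was called lower (limma adjusted p = 0.0383, lost without any 1 of the 6 arrays, up to 0.112). Of the 15, 13 were higher on average in Sfrp1_KO and 2 were lower, Ly6c2 and Cd68 (-0.26, with the genotypes overlapping). The mean level of the 15 ranged from 5.06 to 5.70 in Sfrp1_KO arrays and from 5.01 to 5.11 in WT arrays. Ptprc, the pan-leukocyte gene, was under background in all 6 arrays, with 4.12 to 4.34 in Sfrp1_KO and 4.03 to 4.26 in WT. The part of these cells in the class I values was not tested.

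Markers of other leukocytes were mostly under background. All 10 measured T and NK cell markers were under background in all 6 arrays (mean level 4.17 to 4.30 in Sfrp1_KO and 4.21 to 4.31 in WT). Of 6 B cell and plasma cell markers, 4 were under background in all arrays, with a mean level of 4.09 to 4.25 in Sfrp1_KO and 4.02 to 4.54 in WT. Of 11 dendritic and Langerhans cell markers, 7 were under background in all arrays, including the Langerhans gene Cd207 and Itgax; the list's mean level was 4.51 to 4.54 in Sfrp1_KO and 4.66 to 4.83 in WT, and its 1 called gene was Epcam (lower, limma adjusted p = 0.0455; lost without Sfrp1_KO replicate 1, 2 or 3 or WT replicate 1, up to 0.184), which keratinocytes also express. Epcam is a positive marker of the sort, yet it stood above background in 1 of 3 Sfrp1_KO arrays and in 3 of 3 WT arrays.

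The keratinocyte markers of the sorted population differed widely between the genotypes. Of 9 basal keratinocyte and sort markers 7 were called lower in Sfrp1_KO, where 1.45% of all genes were. Krt5 lay at 6.32 to 6.91 in Sfrp1_KO, against 16.81 to 17.68 in WT. The mean level of the 9 was 6.41 to 6.67 in Sfrp1_KO and 10.19 to 10.62 in WT. Itga6, the α6-integrin gene of the sort, was among the 7, and its call ended without Sfrp1_KO replicate 1, 2 or 3 or WT replicate 2 (limma adjusted p up to 0.111). Cd34, another marker of the sort, had 11.23, 11.55 and 10.19 in Sfrp1_KO, against 9.26, 9.54 and 9.46 in WT, and did not pass (difference 1.57, SE 0.34, limma adjusted p = 0.0714). Of 8 fibroblast markers 2, Pdgfrb and Thy1, were called higher, where 1.83% of all genes were, and none lower. In 5 of the 8 the genotypes overlapped, and Lum (-0.59), Col1a1 (-0.45) and Dpt (-0.11) were lower on average in Sfrp1_KO. The mean level of the list was 6.63 to 7.40 in Sfrp1_KO, and 5.58, 5.49 and 6.87 in WT replicates 1, 2 and 3. Of 8 endothelial markers none was called (mean level 4.37 to 4.62 in Sfrp1_KO and 4.24 to 4.79 in WT). The part of these cell types in the class I values was not tested. Thy1 lost its call without Sfrp1_KO replicate 1 or 2 or any 1 of the WT arrays (limma adjusted p up to 0.1004).

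**Figure D3:**
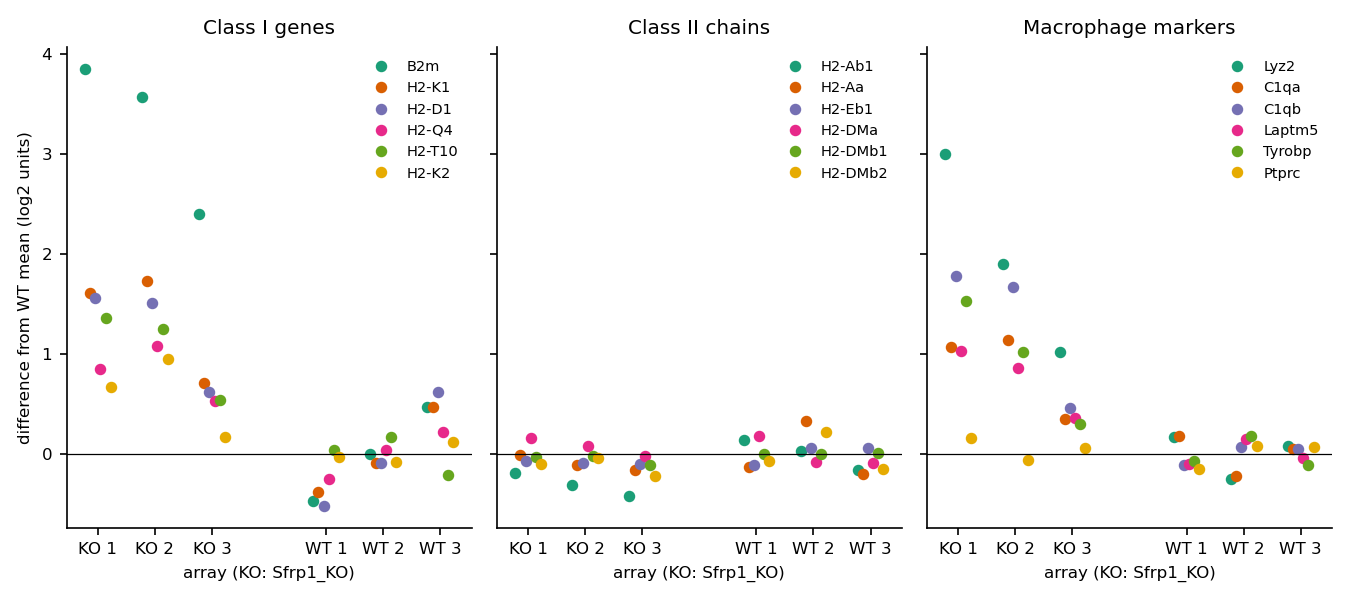
Difference of each array from the mean of the WT arrays (log2 units) for 6 class I genes, 6 class II chains and 6 macrophage markers; each point is 1 array, with Sfrp1_KO arrays left of WT arrays. The class I genes shown and the macrophage markers shown, other than Ptprc, are higher on average in Sfrp1_KO and lowest there in replicate 3. The class I genes shown are those with the largest differences, so their being higher follows from the choice. Over all 24 class I heavy chains the median difference was 0.08, with 18 positive and 6 negative. Of the class II chains shown, H2-Ab1 is lower in every Sfrp1_KO array than in every WT array (-0.31). The others are under background in all arrays, apart from H2-Aa in WT replicate 2, so a difference in them may not be detectable. The markers shown are a choice from a list of 15, of which 10 were lowest in replicate 3. In that list 13 markers were higher on average in Sfrp1_KO, and 2 not shown, Ly6c2 (-2.82) and Cd68 (-0.26), were lower.

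Other genes of the pathway were taken from 8 lists with 90 measured genes, of which 9 rose and 1 fell, where 1.83% of all genes rose and 1.45% fell. For the endoplasmic reticulum chaperones and channel that serve class I loading, 2 of 11 rose and none fell: Hspa5, the chaperone BiP (1.52, SE 0.26, limma adjusted p = 0.0349), and Sec61a1, the pore of the Sec61 channel (0.54, SE 0.10, limma adjusted p = 0.0414). The chaperone genes Calr, Canx and Pdia3 of the same list did not pass. Calr had 10.09, 9.995 and 9.29 in Sfrp1_KO, against 10.79, 10.15 and 10.03 in WT, and Canx and Pdia3 differed by -0.11 and -0.03. None of 17 constitutive proteasome genes passed, 13 of them with a negative difference, and their median was -0.16; the smallest adjusted p was that of Psme3, an activator subunit of the nuclear proteasome (-0.60, SE 0.13, limma adjusted p = 0.0813). Of 7 cytosolic and vesicular peptidases Blmh, bleomycin hydrolase, fell (-0.91, SE 0.10, limma adjusted p = 0.00841) and none rose.

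Of 9 genes of the class II loading compartment 2 rose and none fell. The 12 class II chains cannot be set against them, since 10 were under background in all 6 arrays. Ctsl, the cysteine protease cathepsin L, had 10.38, 11.18 and 11.16 in Sfrp1_KO, against 8.76, 7.86 and 6.58 in WT (3.18, SE 0.54, limma adjusted p = 0.0341). Ctsz, cathepsin Z, had 6.98, 6.61 and 6.65 in Sfrp1_KO, against 5.72, 5.57 and 5.43 in WT (1.17, SE 0.13, limma adjusted p = 0.00973). Ctss, the protease that removes the invariant chain in dendritic cells, was at 4.98 to 5.53 in Sfrp1_KO, above background in 2 of the 3 arrays. In WT it was under background at 4.68 to 4.85, and the difference did not pass (limma adjusted p = 0.145). None of 9 transcription factors of MHC promoters passed (median -0.07); Rela, an NF-kB subunit, had the smallest adjusted p (0.43, SE 0.15, limma adjusted p = 0.261), and Rfx5, Rfxap and Rfxank, subunits of the factor on the X box, differed by -0.04, -0.04 and -0.07.

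Of 15 genes of interferon signalling 2 rose and none fell. Ifngr1, the ligand-binding chain of the interferon gamma receptor, had 6.93, 7.34 and 7.20 in Sfrp1_KO, against 6.16, 6.19 and 5.79 in WT (1.11, SE 0.15, limma adjusted p = 0.0181). Stat2, which type I interferon activates, had 6.78, 7.29 and 6.44 in Sfrp1_KO, against 5.74, 5.55 and 5.49 in WT (1.24, SE 0.22, limma adjusted p = 0.0359). Jak1 came close (0.89, limma adjusted p = 0.0739), and Ifng itself was under background in all arrays, at 3.43 to 3.81 in Sfrp1_KO and 3.67 to 3.73 in WT.

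Among 10 MHC-like molecules encoded outside the H2 symbols 2 rose and none fell. Fcgrt, the neonatal Fc receptor, whose heavy chain also pairs with β2-microglobulin, had 6.08, 6.05 and 6.29 in Sfrp1_KO, against 5.02, 5.02 and 5.18 in WT (1.07, SE 0.10, limma adjusted p = 0.00543). Mr1, which pairs with it too and presents vitamin B metabolites, had 5.94, 6.82 and 6.09 in Sfrp1_KO, against 4.84, 4.99 and 5.02 in WT (1.33, SE 0.23, limma adjusted p = 0.0350). Of 12 costimulatory and checkpoint ligands Pvr, a ligand of receptors on NK and T cells, rose (1.63, SE 0.26, limma adjusted p = 0.0288), and the T cell costimulators Cd86 and Cd40 and the checkpoint ligand Cd274 were under background in all arrays, with differences of 0.06, 0.10 and 0.30. Among these 10 calls, Ctsz and Fcgrt held without any 1 array. Calls ended without Sfrp1_KO replicate 1 for Hspa5, Sec61a1, Ctsl, Stat2, Mr1 and Pvr, without Sfrp1_KO replicate 2 for Hspa5, Sec61a1, Blmh, Ctsl, Ifngr1, Stat2 and Pvr, and without Sfrp1_KO replicate 3 for Sec61a1, Ctsl, Ifngr1 and Mr1. Without a WT array they ended for Sec61a1, Stat2, Mr1 and Pvr whichever it was, for Hspa5 without WT replicate 2 or 3 and for Ctsl without WT replicate 2. With limma's trend and robust options, Hspa5 (adjusted p = 0.0556) and Sec61a1 (adjusted p = 0.152) did not pass. The highest adjusted p without 1 array was 0.170, for Sec61a1, and the lowest of these maxima among the calls that ended was 0.0514, for Blmh.

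**Figure D4:**
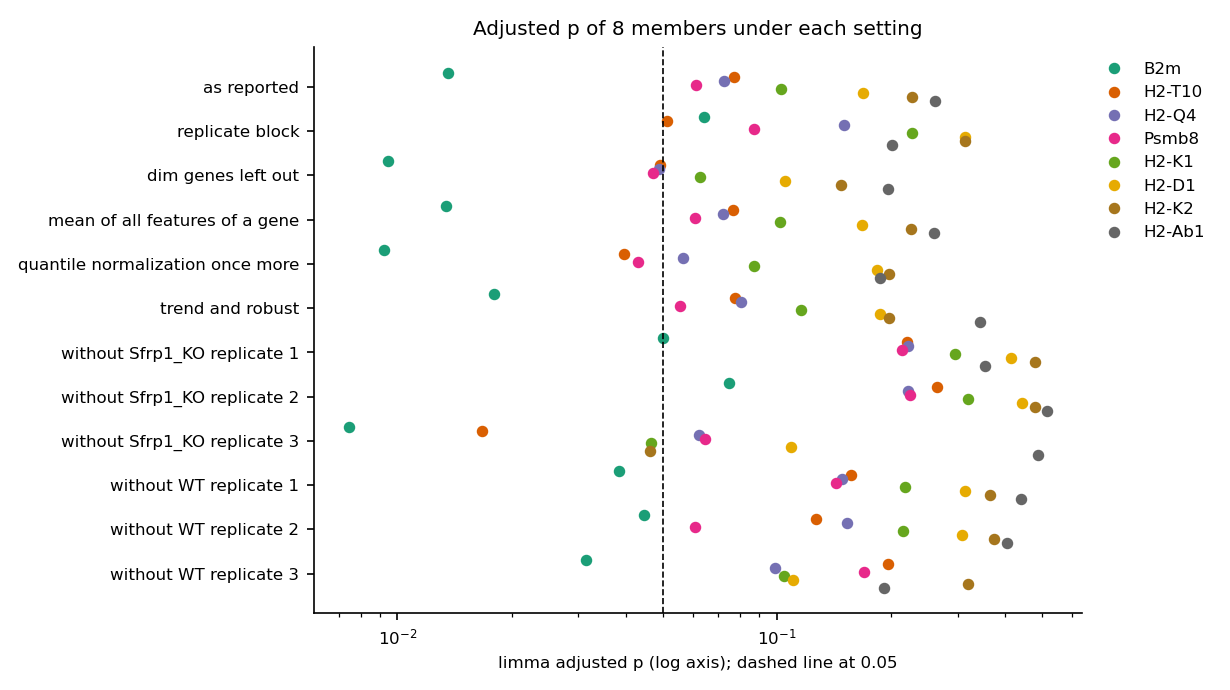
Limma adjusted p (log axis) of 8 members under the reported setting and each alternative, with the threshold of 0.05 as a dashed line. B2m lies left of the line except with the replicate block and without Sfrp1_KO replicate 1 or 2, and H2-T10 lies left of it with dim genes left out, with quantile normalization once more and without Sfrp1_KO replicate 3.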

How the data were processed

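RNA of sorted cancer stem cells from 3 Sfrp1_KO and 3 WT samples was measured on 1 array each. The deposited log2 signals were made by the authors; per the submitters' processing notes the tools were Affymetrix Expression Console and RMA. For versions, annotation build and the step that carries the scale above 16, nothing is stated in those notes. No 2 arrays were identical. Of 72688 features, 30604 carried 1 symbol; symbols were updated through RefSeq identifiers (GRCm38.p6), where 22815 features matched, and the brightest feature per gene left 30142 genes. Differences were fitted in R 4.3.3 by lmFit and eBayes of limma 3.58.1 (two-sided); a gene was called where its Benjamini-Hochberg adjusted p, taken across the whole table, was under 0.05, with no filter on dim genes.

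The members, the 7 marker and 8 pathway lists, the motifs and the alternatives were chosen with earlier results of these data known. Members above background in every array of a genotype, or called, are given by array, the others by range; H2-Aa is given by array as the partner chain of H2-Ab1, a choice made after its values were seen; up to 4 genes per pathway list are named, called ones by size, then by smallest p. Genes named beyond that (loading chaperones, Rfx genes, Ifng, Cd86, Cd40, Cd274, markers) were chosen for their role after their values were seen. In a simulation of this comparison with 30142 genes, 25 of 50 genes changed by 1 log2 unit and 47 of 50 changed by 3 were recovered, with 9 false calls. The changed genes were drawn only from those with a mean level above the median of all genes. Noise was normal and independent between arrays. Recovery of dimmer genes, or with shifts shared by the genes of an array, was not simulated. Promoter windows and sequences are RefSeq's.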

Additional observations from a re-analysis of the deposited data

How the results depend on the processing

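Of 49 members, 1 was called higher in Sfrp1_KO as reported, with 4 after dim genes were left out (B2m, H2-Q4, H2-T10 and Psmb8, with 18 members and 11010 genes tested), 3 after quantile normalization once more (B2m, H2-T10 and Psmb8), and 0 with the replicate number as a block, where B2m had an adjusted p of 0.0642. The share of all tested genes called higher moved too. It was 1.83% as reported, 5.54% with dim genes left out, 2.41% after quantile normalization and 0.985% with the block. Deviations from the genotype means correlated by 0.18, -0.12 and 0.17 between samples numbered 1, 2 and 3, and by -0.33 to 0.25 between samples of unlike number. These few values show no clear pairing by number and cannot settle whether there is any. The block also ended the calls of Hspa5, Sec61a1, Ctsl, Ifngr1, Stat2, Mr1, Ly6c2, Epcam, Thy1 and Itga6 (limma adjusted p 0.0540 to 0.133). In all genes it left 297 higher and 238 lower calls of 552 and 437. A minimum difference of 1 log2 unit, the mean of all features and the trend and robust options left the count at 1. Leaving out 1 array gave 0 to 4 calls, 0 without Sfrp1_KO replicate 1 or 2 and 4 without Sfrp1_KO replicate 3 (B2m, H2-K1, H2-K2 and H2-T10). Of all genes, 0.74%, 0.634% and 1.62% were called higher without Sfrp1_KO replicate 1, 2 and 3. Without 1 WT array the share was 0.866% to 1.15%. No member was called lower under any of these alternatives. With dim genes left out, the median difference was 0.82 over the 7 class I heavy chains still tested and -0.31 for H2-Ab1, the 1 class II chain still tested; both follow from the fewer genes tested. Without 1 array the medians ranged from 0.02 to 0.13 for class I and from -0.065 to 0.043 for class II, positive only without WT replicate 2. Differences near 0 changed sign without 1 array, with ranges of -0.0052 to 0.12 for H2-M2, -0.16 to 0.32 for Psmb10 and -0.13 to 0.050 for Psme1. The cause was not tested. Signal over background limits what can be seen in the 28 members under it in all arrays.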

Other observations

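Several symbols, H2 symbols among them, stood on 9 features, which cannot be assigned to 1 gene. Their differences (Sfrp1_KO minus WT) ran from -0.16 to 1.40 log2 units, every Sfrp1_KO array lay above every WT array in 3 of the 9, and none passed limma over all 65770 transcript clusters (smallest adjusted p = 0.0771). The share of all transcript clusters that separated in this way was not counted, so no excess can be read from the 3. Features that join another gene of the rule with other symbols (4) differed by -0.46 to 0.49 and none separated upwards.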
